A study of Mus musculus with 12 samples.

Results

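The ID proteins and the receptors and SMAD proteins of the bone morphogenetic protein (BMP) pathway were followed in bone marrow-derived macrophages (BMMs) that lacked IGF2BP2, an RNA-binding protein, and in WT BMMs. The set held 10 of the 38887 genes in the expression tables, namely Id1, Id2, Id3, Smad6, Smad7, Bmpr1a, Bmpr2, Acvr1, Smad1 and Smad5. They were chosen from a pathway of which Id1 and Bmpr1a were already known to be low in KO, so that the values of these 2 genes are given as a description without a test. RNA-Seq was performed on 12 libraries, with 3 mice per genotype. BMMs were grown from bone marrow of mice aged 3 to 4 months with 50 ng/ml M-CSF for 6 days and were seeded at 500000 cells per well. They were then left untreated (M0) or were given 20 ng/ml IL-4 for 8 h (M2), which gave 4 groups of 3 libraries. KO mice carried loxP sites around exons 4 and 5 of Igf2bp2 together with Cre recombinase in the Lyz2 locus, which is active in the myeloid lineage. WT mice were littermates without floxed alleles. Controls of the study could be with or without Cre, and the labels do not say which applied to these 3 mice. Library numbers were read as mice, and 1 mouse gave an M0 and an M2 library.

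BMP ligands bind a complex of type I receptors (such as BMPR1A and ACVR1) and type II receptors (such as BMPR2), and the type I receptor then phosphorylates SMAD1 and SMAD5, which enter the nucleus with SMAD4. Among the classical targets are the ID genes, whose products lack a DNA-binding region and hold E proteins of the basic helix-loop-helix family away from DNA, and Smad6 and Smad7, whose products inhibit the receptors and thereby close a feedback loop. In macrophages ID proteins are known as regulators of differentiation and, in resident populations, of tissue identity.

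The start of the Smad6 gene, which encodes a feedback inhibitor, is shown because it holds a palindrome of 2 SMAD-binding boxes (GTCT followed by AGAC). The GC-rich letters GGCGCC, which BMP SMADs are known to bind, are shown where they occur near the start of the other genes. Both motifs read the same on either strand, and the windows ran from 250 bases before to 50 bases after each start in RefSeq on GRCm38.p6. Capitals mark the motif, and each line is written 5′ to 3′ on the strand of the gene.
Smad6, chr9:64022045-64022074, minus strand: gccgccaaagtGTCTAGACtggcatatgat
Id2, chr12:25096306-25096335, minus strand: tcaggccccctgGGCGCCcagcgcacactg
Bmpr1a, chr14:34502727-34502756, minus strand: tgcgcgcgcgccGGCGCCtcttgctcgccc
Bmpr2, chr1:59764162-59764191, plus strand: ctccggcggccgGGCGCCgctgcctgcccc
Smad5, chr13:56703021-56703050, plus strand: ccccggcgagcgGGCGCCgagcgcttgtcc

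The palindrome GTCTAGAC was found in 70 of 32851 windows (0.213%), and Smad6 was the only member with it among the 8 members whose windows were searched. GGCGCC was found in 11.9% of all windows, and the 4 base box GTCT alone in 88.0%. The composite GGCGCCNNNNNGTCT, searched on both strands, was found in 24 windows, none of them of a member. Windows of Id1 and Smad7 were not searched. A match describes the letters of a window and does not show that a SMAD protein was bound there.

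All 10 members passed the filter on low counts, and their expected counts, which are estimated reads per gene, were whole numbers in every library. On GRCm38 the ID genes lie at chr2:152736251-152737410 (Id1, ENSMUSG00000042745), chr12:25093799-25097140 (Id2, ENSMUSG00000020644) and chr4:136143497-136145755 (Id3, ENSMUSG00000007872). Smad6 (ENSMUSG00000036867) lies at chr9:63953076-64022059 and Bmpr1a (ENSMUSG00000021796) at chr14:34410734-34503341. An exon of Bmpr1a overlaps the antisense gene Gm17110, which was counted at 0.0515 CPM at most. Smad5 shares exon sequence with the small RNA gene Gm27301, which was at 0 in all 12 libraries. CPM scale the counts of a library by its total, here with TMM factors, and they compare 1 gene between libraries. TPM also take gene length into account, and they were used to compare genes with each other.

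Library totals ran from 20011792 to 39632770 counts. Igf2bp2 counts over the whole gene lay between 76.5 and 118 CPM in WT M0, 84.9 and 95.9 CPM in KO M0, 178 and 233 CPM in WT M2, and 129 and 146 CPM in KO M2. These counts include the exons that remain and therefore check the label only in part. Lyz2, which Cre interrupts, separated the genotypes, with 4185 to 10544 CPM in the 6 WT libraries and 11.04 to 33.24 CPM in the 6 KO libraries. In every comparison of KO with WT, the loss of IGF2BP2 therefore cannot be told apart from the loss of Lyz2 or from Cre. The 10 macrophage markers summed to between 6064 and 6299 CPM in all M0 libraries and between 8232 and 8940 CPM in all M2 libraries. The 8 IL-4 markers summed to at most 24.8 CPM in M0 and to at least 4596 CPM in M2. The 7 lymphocyte markers summed to at most 0.106 CPM, and the neutrophil marker Ly6g was at 0 in every library. Of the 8 erythroid, megakaryocyte and mast cell markers, all but Pf4 stayed under 1 CPM. Pf4 lay between 318 and 425 CPM in WT M0, 400 and 418 CPM in KO M0, 335 and 350 CPM in WT M2, and 421 and 483 CPM in KO M2, so that it was higher in KO M2 than in WT M2. The 6 dendritic cell markers summed to 10.5 to 19.5 CPM in M0. In M2 they summed to 61.3 to 74.9 CPM in WT and 45.1 to 60.0 CPM in KO. Most of this was Itgax (10.0 to 19.0 CPM in M0 and 43.3 to 72.8 CPM in M2), and all others but Zbtb46 stayed under 1 CPM. The 6 endothelial markers summed to 10.4 to 11.8 CPM in M0. In M2 they summed to 48.0 to 55.0 CPM in WT and 40.4 to 46.4 CPM in KO. Of these, Pecam1 rose from at most 1.97 CPM in M0 to at least 34.7 CPM in M2. Kdr and Cdh5 were lower in M2, and Tek, Tie1 and Emcn stayed under 1 CPM. The 10 stromal markers summed to 38.0 to 65.5 CPM in WT M0 against 10.5 to 37.4 CPM in KO M0, and to 40.9 to 74.3 CPM in WT M2 against 11.7 to 32.2 CPM in KO M2. The 8 neutrophil markers summed to 9.27 to 24.1 CPM in WT M0 against 5.84 to 6.17 CPM in KO M0, and to 5.01 to 14.1 CPM in WT M2 against 5.31 to 6.52 CPM in KO M2. In bulk RNA, fewer cells of a type and less RNA per cell cannot be told apart.

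Per length, Id2 was by far the most abundant member. It reached between 90.6 and 253 TPM in the 12 libraries, and its range did not overlap that of any other member in any group. In WT M0 it was followed by Id1 with a mean of 31.4 TPM and Acvr1 with 29.3 TPM, whose ranges overlapped, and by Id3 with 17.7 TPM. Smad1, Smad6, Smad5 and Bmpr2 came next, with means between 9.18 and 6.76 TPM and ranges that overlapped between neighbours. Bmpr1a, at 3.56 TPM, and Smad7, at 1.86 TPM, were lowest. The order differed in KO M0, where Id1 stood at 8.84 TPM, with a range that overlapped that of Smad1, and Id3 and Smad6 stood at 3.95 and 2.84 TPM, below both receptor SMADs and Bmpr2. In both M2 groups Smad6 was the least abundant member, with means of 0.863 TPM in WT and 0.770 TPM in KO, whereas Id1 was again second, with 32.6 and 32.9 TPM.

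**Figure D1:**
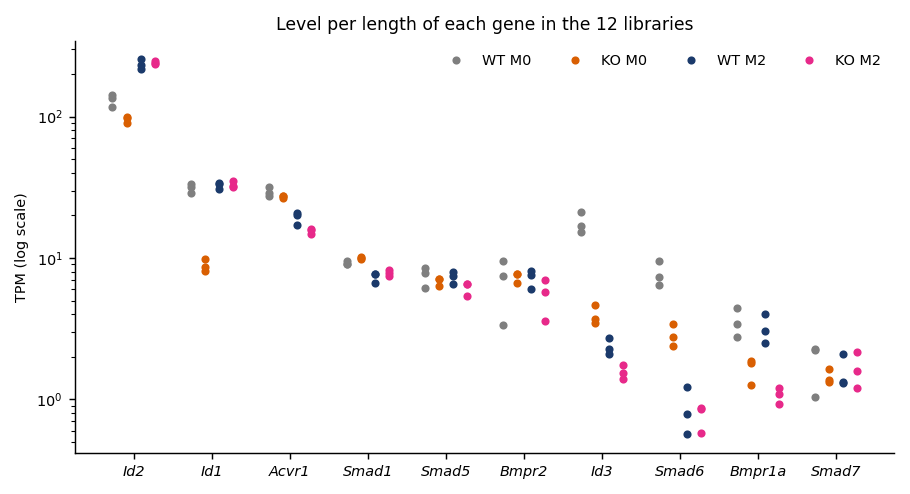
TPM of each member on a logarithmic axis, with 1 point per library and 1 colour per group. Id2 lies above all other members in every group, and the KO M0 points (orange) of Id1, Id3, Smad6 and Bmpr1a stand farthest below their WT M0 points (grey).

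The first question was how the members differed between untreated KO and WT macrophages. The ID genes were lower in KO, as was Smad6, whereas no receptor SMAD was called. Id1 reads came to 14.7, 15.7 and 14.4 CPM in the WT M0 libraries and to 4.70, 3.85 and 4.15 CPM in the KO M0 libraries. All KO values lay far below all WT values, with a log2 difference of -1.83 (SE 0.09). Id3 was not among the genes that prompted the choice. It was measured in the same libraries as Id1, however, so that its test does not stand apart from that choice. Id3 gave 10.8, 12.6 and 10.4 CPM in WT M0 and 3.09, 2.33 and 2.32 CPM in KO M0. Its groups did not overlap, and it fell by 2.14 on the log2 scale (SE 0.16, edgeR adjusted p = 2.7e-05), a 4.40-fold difference. Id2, the most abundant of the family, had 90.5, 88.2 and 79.8 CPM in WT M0 and 64.8, 60.2 and 64.7 CPM in KO M0. It also fell in KO, although by less, with a log2 difference of -0.45 (SE 0.06, edgeR adjusted p = 0.0017).

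Smad6, the inhibitory SMAD that acts mainly on BMP receptors, followed the same direction. Its values were 11.4, 14.9 and 10.8 CPM in WT M0 and 4.37, 4.22 and 3.84 CPM in KO M0. All KO libraries lay below all WT libraries, and the log2 difference was -1.58 (SE 0.19, edgeR adjusted p = 0.00052). Smad7, which inhibits both BMP and TGF-β receptors, had 5.08, 5.26 and 2.53 CPM in WT M0 and 2.72, 3.13 and 2.99 CPM in KO M0. The third WT library lay below the KO libraries, and no difference passed the threshold (log2 -0.55, 95% CI -1.03 to -0.07, edgeR adjusted p = 0.144). Without WT M0 replicate 3 the log2 difference was -0.80 (edgeR adjusted p = 0.0042), so that the call for Smad7 depended on this library.

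**Figure D2:**
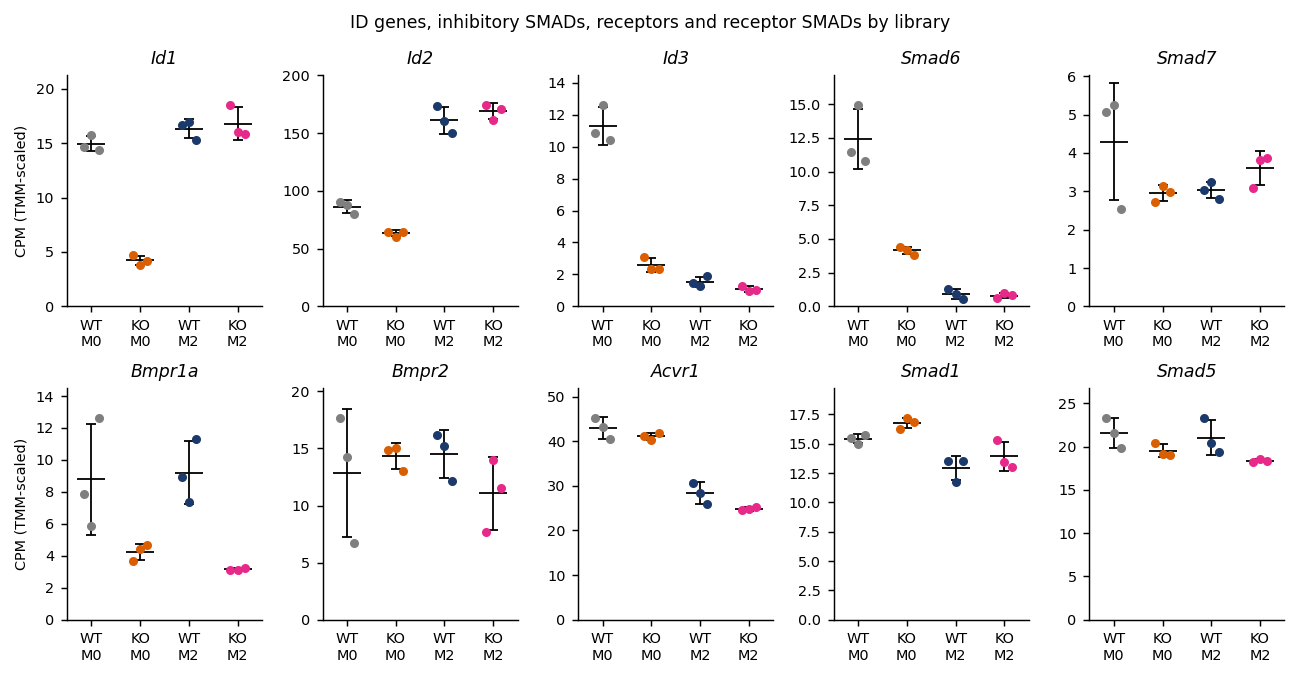
CPM of the 10 members in the 12 libraries, 1 panel per gene with an axis from 0, with horizontal lines for means and bars for SD (n = 3). Id1, Id3 and Smad6 stand far lower in KO M0 than in WT M0, and Id3 and Smad6 are low in all M2 libraries, whereas Id1 and Id2 are at the same height in both M2 groups.

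Among the receptors, Bmpr1a, a type I receptor, had 7.86, 5.85 and 12.6 CPM in WT M0 and 3.67, 4.43 and 4.65 CPM in KO M0. All KO values were below all WT values, and the mean log2 difference of -1.03 (SE 0.24) became -0.68 without WT M0 replicate 3, the highest library. Acvr1, another type I receptor, had 45.2, 43.2 and 40.4 CPM in WT M0 and 41.1, 40.3 and 41.8 CPM in KO M0, with overlapping groups (log2 -0.06, 95% CI -0.20 to 0.07, edgeR adjusted p = 0.554). Bmpr2, the type II receptor, had 17.7, 14.2 and 6.70 CPM in WT M0 and 14.9, 15.1 and 13.0 CPM in KO M0. Its WT spread was set by replicate 3, and the log2 difference of 0.14 (95% CI -0.45 to 0.74, edgeR adjusted p = 0.795) turned to -0.15 without that library.

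Neither receptor SMAD was called between the genotypes in M0. Smad1 had 15.46, 15.02 and 15.77 CPM in WT M0 and 16.3, 17.2 and 16.8 CPM in KO M0. The KO values were all slightly above the WT values, without a call (log2 0.12, 95% CI -0.04 to 0.29, edgeR adjusted p = 0.333). Smad5 had 23.3, 21.6 and 19.9 CPM in WT M0 and 20.5, 19.1 and 19.1 CPM in KO M0 (log2 -0.15, 95% CI -0.31 to 0.02, edgeR adjusted p = 0.247).

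Of the 8 members other than Id1 and Bmpr1a, 3 were called in M0, all of them lower in KO, namely Id2, Id3 and Smad6. Over all 12846 genes tested, 9.78% were called in M0 and 4.27% were called lower. The number of all genes called in M0, 1256, fell to 461 without WT M0 replicate 2 and to 745, 528 and 563 without KO M0 replicate 1, 2 and 3. It was 1156 without WT M0 replicate 1 and rose to 1461 without WT M0 replicate 3. The groups did not overlap for 4 of the 8 members, the fourth being Smad1, against 31.1% of all genes. The median log2 difference was -0.30 over these 8 members, beside -0.00066 over all genes tested. The calls for Id2, Id3 and Smad6 held in each of the 6 fits that left 1 library out. The stromal and neutrophil markers were also lower in KO M0, and their part in these differences was not tested. The third KO M0 library had the lowest stromal sum, 10.5 CPM against 36.4 and 37.4 CPM in the other two.

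After IL-4, no tested member was called between the genotypes, and Id1 had overlapping values in both. Id1 had 16.7, 17.0 and 15.3 CPM in WT M2 and 18.53, 16.02 and 15.83 CPM in KO M2, so that the groups overlapped and their means lay 0.04 apart on the log2 scale (SE 0.09). Id2 had 174, 160 and 150 CPM in WT M2 and 175, 162 and 171 CPM in KO M2, again with overlapping groups (log2 0.07, 95% CI -0.07 to 0.21, edgeR adjusted p = 0.580). Id3 was lower in KO in every library, with 1.45, 1.29 and 1.89 CPM in WT M2 and 1.28, 0.957 and 1.02 CPM in KO M2, but the difference did not pass the threshold (log2 -0.52, 95% CI -0.97 to -0.08, edgeR adjusted p = 0.181). These Id3 values rest on 25 to 38 reads per library.

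Smad6 was counted with few reads in M2. It had 1.32, 0.928 and 0.511 CPM in WT M2 and 0.640, 0.957 and 0.808 CPM in KO M2, from 10 to 37 reads per library. The groups overlapped (log2 -0.19, 95% CI -0.84 to 0.45, edgeR adjusted p = 0.764), and the direction turned without WT M2 replicate 1 (0.18). Smad7 had 3.04, 3.25 and 2.81 CPM in WT M2 and 3.09, 3.83 and 3.88 CPM in KO M2 (log2 0.25, 95% CI -0.25 to 0.75, edgeR adjusted p = 0.579).

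Bmpr1a, which was chosen for its low values in KO, had 8.90, 7.37 and 11.3 CPM in WT M2 and 3.13, 3.13 and 3.26 CPM in KO M2, with no overlap. The KO values were all within 0.131 CPM of each other, whereas the WT values spread over 3.93 CPM. In both treatments the highest WT value came from replicate 3, which also had the highest counts of the signal recognition particle RNA genes Rn7s1 and Rn7s2, with 33.9 CPM in M0 and 36.8 CPM in M2 for each. Whether the composition of these libraries bears on Bmpr1a was not tested.

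No call was made in M2 for the other receptors and the receptor SMADs. Acvr1 had 30.7, 28.5 and 25.9 CPM in WT M2 and 24.5, 24.7 and 25.2 CPM in KO M2, and the groups did not overlap although no call was made (log2 -0.19, 95% CI -0.33 to -0.05, edgeR adjusted p = 0.123). Bmpr2 had 16.2, 15.3 and 12.2 CPM in WT M2 and 7.68, 14.02 and 11.52 CPM in KO M2, with the first KO library apart from the others (log2 -0.38, 95% CI -0.99 to 0.23, edgeR adjusted p = 0.482). Smad1, with 13.5, 11.8 and 13.5 CPM in WT M2 and 15.3, 13.5 and 13.0 CPM in KO M2, overlapped between genotypes (edgeR adjusted p = 0.490). Smad5 had 23.3, 20.5 and 19.3 CPM in WT M2 and a narrow 18.2, 18.6 and 18.4 CPM in KO M2 (log2 -0.19, 95% CI -0.36 to -0.03, edgeR adjusted p = 0.184).

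In M2, edgeR called 0 of the 8 tested members, beside 2.68% of all genes. The latter were 344 genes, a number that fell to 25 without KO M2 replicate 3, to 34 without KO M2 replicate 2 or WT M2 replicate 2, and to 185 without WT M2 replicate 1. At an unadjusted p under 0.05 there were 3 of 8, beside 20.3% of all genes, and DESeq2 also called 0. The groups did not overlap for 3 of the 8 members (Id3, Acvr1 and Smad5), beside 24.8% of all genes. The median log2 difference of the 8 members was -0.19, and that of all genes -0.00093.

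**Figure D3:**
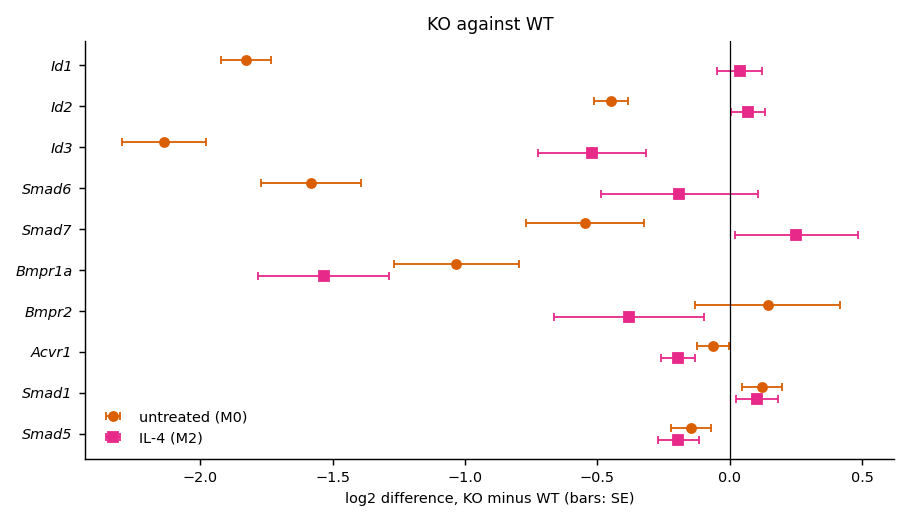
Log2 difference of KO minus WT for each member in M0 (circles) and in M2 (squares), with bars for the standard error and a line at 0. Id1, Id2, Id3 and Smad6 lie left of 0 in M0 and move toward 0 in M2, whereas Bmpr1a lies left of 0 in both.

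The next comparison asked how each genotype responded to IL-4. These contrasts use the M0 and M2 libraries described above, so that they are not independent of the genotype differences. IL-4 raised Id2 and lowered Id3, Smad6, Acvr1 and Smad1 in both genotypes. Id2 rose by a log2 of 0.90 in WT (SE 0.06, edgeR adjusted p = 1.4e-07) and of 1.42 in KO (SE 0.06, edgeR adjusted p = 2.1e-09), and all M2 values exceeded all M0 values. Id3 dropped by 2.87 on the log2 scale in WT (SE 0.18, edgeR adjusted p = 3.2e-08) and by 1.25 in KO (SE 0.18, edgeR adjusted p = 8.2e-05). In WT this took Id3 from 11.3 ± 1.18 to 1.54 ± 0.311 CPM (mean ± SD, n = 3), and in KO from 2.58 ± 0.437 to 1.09 ± 0.171 CPM.

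Smad6 showed the largest fall of the members in either genotype. It dropped by 3.73 on the log2 scale in WT (SE 0.24, edgeR adjusted p = 4.9e-08), a 13.3-fold decrease, and it dropped by 2.34 in KO (SE 0.23, edgeR adjusted p = 2.7e-06), a 5.06-fold decrease. Acvr1 dropped by 0.60 in WT (SE 0.06, edgeR adjusted p = 5.7e-06) and by 0.73 in KO (SE 0.06, edgeR adjusted p = 6.3e-07). Smad1 moved less, by -0.25 in WT (edgeR adjusted p = 0.0175) and -0.27 in KO (edgeR adjusted p = 0.0081), and in WT the call was lost without WT M2 replicate 2 (log2 -0.19, edgeR adjusted p = 0.0836).

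Id1 was measured in WT at 14.9 ± 0.701 CPM before and 16.3 ± 0.866 CPM after IL-4, a log2 difference of 0.13 (SE 0.09). In KO it went from 4.23 ± 0.434 to 16.8 ± 1.51 CPM, a log2 difference of 1.99 (SE 0.09), and every KO M2 library lay above every KO M0 library. The M0 values are those by which Id1 was chosen, and no test is given.

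Smad5 showed no call in either genotype (log2 -0.04 in WT, 95% CI -0.21 to 0.13, and -0.09 in KO, 95% CI -0.25 to 0.08). For Bmpr2 the log2 differences were 0.17 in WT (95% CI -0.45 to 0.78) and -0.36 in KO (95% CI -0.95 to 0.24), and in WT the sign turned without WT M0 replicate 3 (-0.13). Bmpr1a stood at 8.78 ± 3.48 CPM in WT M0 and at 9.19 ± 1.98 CPM in WT M2, and at 4.25 ± 0.511 and 3.17 ± 0.0743 CPM in KO. Its log2 difference in KO was -0.43 (SE 0.25), and all KO M2 values lay below all KO M0 values. Smad7 had log2 differences of -0.51 in WT (95% CI -1.01 to -0.01, edgeR adjusted p = 0.0867) and 0.29 in KO (edgeR adjusted p = 0.296). With the mouse as a block Smad7 in WT passed the threshold (log2 -0.47, edgeR adjusted p = 0.0414), and without WT M0 replicate 3 it did so as well (log2 -0.77, edgeR adjusted p = 0.00079).

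Of the 8 members other than Id1 and Bmpr1a, IL-4 changed 5 in WT and 5 in KO, with Id2 higher and Id3, Smad6, Acvr1 and Smad1 lower in each. The count was first set over all 10 members, where it is 5 in WT and 6 in KO, and the additional gene in KO is Id1, which was chosen by its low KO M0 values. The 5 of 8 are 62.5%, and of all genes tested 50.0% were called in WT (24.9% higher and 25.1% lower) and 52.8% in KO (26.8% higher and 26.0% lower). The median log2 response of the 8 members was -0.38 in WT and -0.31 in KO, beside -0.0076 and 0.014 over all genes.

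**Figure D4:**
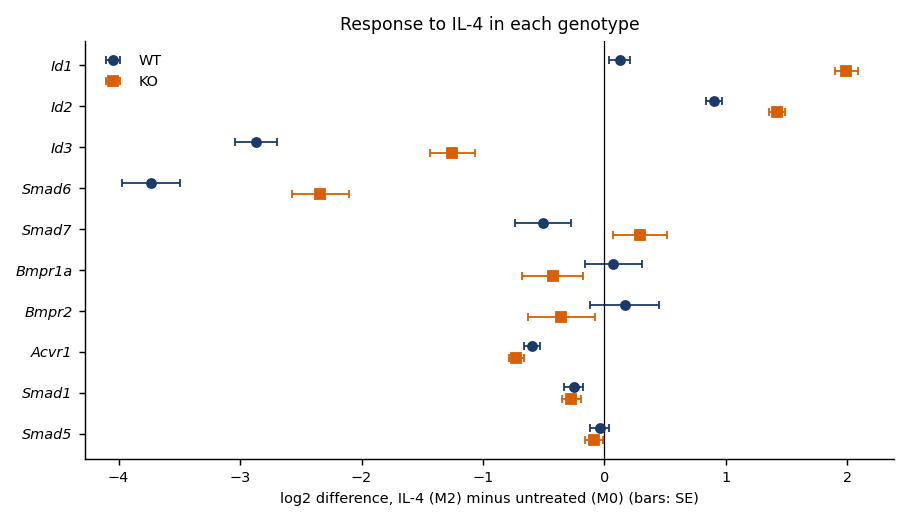
Log2 difference of IL-4 (M2) minus untreated (M0) for each member in WT (circles) and in KO (squares), with bars for the standard error. The KO points of Id1, Id2, Id3, Smad6 and Smad7 lie to the right of the WT points, and the points of Acvr1, Smad1 and Smad5 lie close together.

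The KO response to IL-4 was then compared with the WT response directly, as the former minus the latter. Id3 differed by 1.62 on the log2 scale (SE 0.26, edgeR adjusted p = 0.0074), that is, it fell by less in KO. Id2 differed by 0.52 (SE 0.09, edgeR adjusted p = 0.0107), with a larger rise in KO, but limma on log2(TPM + 1) and on log2(TPM + 0.1) did not call Id2 (limma adjusted p = 0.0502 and 0.0522). In both cases the genotypes were called apart in M0 and were not called in M2. Of the 8 tested members these 2 were called, beside 3.24% of all genes, and 1.11% were called in the higher direction. The 416 genes behind this share became 183 to 643 when 1 library was left out, the fewest without WT M0 replicate 2 and the most without WT M0 replicate 1. For Id1 the same difference was 1.86 (SE 0.13), and it contains the M0 values by which the gene was chosen.

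Smad6 gave a difference of 1.39 (SE 0.35, 95% CI 0.63 to 2.15), just outside the threshold (edgeR adjusted p = 0.0521). With the mouse as a block the adjusted p of edgeR was 0.0317 and with DESeq2 it was 0.0050. It was 0.029 without a filter on low counts, 0.0489 with at least 1 CPM in 3 libraries and 0.0468 with limma on log2(TPM + 1). Smad6 was not called with RLE size factors or with limma on log2(TPM + 0.1). Over the 12 fits that left out 1 library, the edgeR adjusted p of Smad6 lay between 0.0256 and 0.131 and passed in 4, those without WT M0 replicate 1, WT M0 replicate 3, WT M2 replicate 1 or KO M2 replicate 1. Smad7 differed by 0.80 (95% CI 0.10 to 1.49, edgeR adjusted p = 0.215), and by 1.06 without WT M0 replicate 3 (edgeR adjusted p = 0.0131). For Acvr1 (-0.13, 95% CI -0.32 to 0.06), Smad1 (-0.02, 95% CI -0.25 to 0.22) and Smad5 (-0.05, 95% CI -0.28 to 0.19) the intervals were narrow, and for Bmpr2 the interval was wide (-0.52, 95% CI -1.38 to 0.33). Bmpr1a differed by -0.50 (SE 0.34).

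The rest of the pathway was described with 7 lists of 107 other genes, of which 55 passed the filter on low counts and the other 52 were at most 0.565 CPM in any library. In M0, 7 of the 55 were called, all lower in KO, and in M2 3 of 55, again all lower. This was 12.7% and 5.45%, beside 4.27% and 1.46% of all genes called lower and 9.78% and 2.68% called in either direction. The median log2 differences were 0.0063 in M0 and -0.06 in M2, beside -0.00066 and -0.00093 over all genes. The stromal markers were lower in KO in both treatments as well, with 10.5 to 37.4 CPM in KO M0 and 11.7 to 32.2 CPM in KO M2 against at least 38.0 CPM in every WT library. The sums of the dendritic cell and endothelial markers were lower in KO M2 than in WT M2. The part of these markers in the differences of the pathway genes was not tested.

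Of 30 genes for ligands of the BMP and TGF-β family, 6 were measured well enough to test. Their list also held Bmp1, which encodes a procollagen proteinase rather than a ligand and was called in no comparison. Of the ligands, Gdf3 was called by genotype. It had 28.8, 27.0 and 24.3 CPM in WT M0 and 13.2, 10.7 and 11.1 CPM in KO M0, a log2 difference of -1.20 (SE 0.11, edgeR adjusted p = 9.7e-05), and it was also lower in KO M2 (log2 -1.19, edgeR adjusted p = 0.00044). Bmp2, a ligand of BMPR1A and BMPR2, was called in neither genotype comparison, and IL-4 raised it from 9.15 CPM at the median of WT M0 to 23.2 CPM at the median of WT M2 (log2 1.35 in WT and 1.20 in KO). IL-4 also raised Inhba, which stayed at or under 1.02 CPM. The M0 values of Inhba were low, with 0.273 to 0.427 CPM in WT and 0.147 to 0.186 CPM in KO, so that its rise rests on few reads. Tgfb1 was raised as well (log2 0.35 in WT and 0.34 in KO). Gdf3 was lowered slightly (log2 -0.31 and -0.30), a call that 4 of 6 fits without 1 library lost in each genotype. In WT these were the fits without WT M0 replicate 1 or 2 or WT M2 replicate 2 or 3, and in KO those without KO M0 replicate 1 or 3 or KO M2 replicate 2 or 3. The median log2 differences of the 6 ligands were -0.27 in M0 and -0.06 in M2, and with Bmp1 they were -0.50 and -0.06.

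Of 15 further receptors and co-receptors, 10 were tested, and only Rgmb, a BMP co-receptor, was called by genotype (M0 log2 -0.31, edgeR adjusted p = 0.0363, lost without any 1 of the 6 libraries). After IL-4, 3 were lower in both genotypes, beside 25.1% of all genes called lower in WT and 26.0% in KO. These were the type I receptors Tgfbr1 (log2 -0.88 in WT and -1.24 in KO) and Acvr1b (-0.66 and -0.61) and the type II receptor Acvr2a (-0.59 and -0.98). The co-receptor Eng was higher in both (0.25 and 0.32), and Acvrl1, a type I receptor of endothelial cells, was called higher in KO (0.28). Of the 4 secreted antagonists tested of 16, none was called by genotype, and Twsg1, which binds BMPs, was lower after IL-4 in both genotypes (log2 -0.62 in WT and -0.54 in KO). Htra1 was called in WT (log2 -0.91, edgeR adjusted p = 0.0478, kept in 1 of 6 fits without 1 library, that without WT M2 replicate 1).

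Of the other SMADs, Smad3, which transmits TGF-β and activin signals, had 45.3, 40.4 and 35.3 CPM in WT M0 and 29.1, 30.9 and 27.5 CPM in KO M0. All KO values were lower (log2 -0.47, SE 0.12, edgeR adjusted p = 0.0291), but the call was kept in only 1 of the 6 fits without 1 library, that without WT M0 replicate 3. IL-4 lowered Smad3 strongly in both genotypes (log2 -2.32 in WT and -2.12 in KO), to between 5.98 and 9.17 CPM in the 6 M2 libraries. Smad2 was raised by IL-4 in both (0.30 in WT and 0.15 in KO), although the call in KO was lost without KO M0 replicate 1 (edgeR adjusted p = 0.0556) or KO M0 replicate 2 (edgeR adjusted p = 0.0546), and Smad4, the shared partner, was called in WT (0.30).

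Of the 28 intracellular regulators, 27 were tested, and 4 were called in M0, all lower in KO. This was 14.8%, beside 9.78% of all genes called and 4.27% called lower. Pmepa1, whose product sequesters receptor SMADs, had 1.07, 0.920 and 0.857 CPM in WT M0 and 0.441, 0.159 and 0.221 CPM in KO M0 (log2 -1.84, edgeR adjusted p = 0.00757), and limma on TPM did not call it. Ldlrad4, which has a related function, was at 2.03 to 2.81 CPM in WT M0 and 0.551 to 1.25 CPM in KO M0 (log2 -1.38, edgeR adjusted p = 0.0152), a call that was lost without WT M0 replicate 2 or KO M0 replicate 3. Skil, a transcriptional co-repressor of SMADs, was lower by a log2 of -0.59 (edgeR adjusted p = 0.0034), and Tob2, a member of the antiproliferative BTG/TOB family, by -0.53 (edgeR adjusted p = 7.1e-05). Tob2 had 50.2, 53.2 and 50.3 CPM in WT M0 and 36.5, 34.3 and 35.5 CPM in KO M0. It was also called in M2 (log2 -0.20, edgeR adjusted p = 0.0436), which was lost in all 6 fits without 1 library and with the library number as a block (edgeR adjusted p = 0.0514). The median of the list was 0.02 in M0 and -0.05 in M2.

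After IL-4, 16 of the 27 regulators were called in WT (6 higher and 10 lower) and 14 in KO (6 higher and 8 lower), beside the background of 50.0% and 52.8%. By size these were led in WT by Ldlrad4 (-2.07), Runx2 (1.26), Zeb2 (0.95), Smurf1 (0.80) and Ski (0.78), and in KO by Pmepa1 (2.33), Smurf1 (0.82), Ski (0.79), Nedd4l (-0.71) and Runx2 (0.62), all as log2 differences. Pmepa1 stood at 0.159 to 0.441 CPM in KO M0 and 0.979 to 1.53 CPM in KO M2. Its log2 differences by genotype in M0 and after IL-4 in KO therefore rest on few reads in KO M0. Smurf1 encodes a ubiquitin ligase for BMP SMADs, and Ski a SMAD co-repressor. The 3 E proteins with which ID proteins pair, Tcf3, Tcf4 and Tcf12, were tested and not called by genotype, and Tcf12 was lower after IL-4 (log2 -0.59 in WT and -0.61 in KO). Their list also held the ID gene Id4, which did not pass the filter on low counts. Of 9 further target genes, 1 was tested. This was Klf10, an early target of TGF-β, which had a log2 difference of -0.21 in M2 (edgeR adjusted p = 0.0373), a call kept in 1 of the 6 fits without 1 library, that without KO M2 replicate 1. After IL-4 it was called lower in KO (log2 -0.13, edgeR adjusted p = 0.0364), a call also kept only in the fit without KO M2 replicate 1 and lost without a filter on low counts (edgeR adjusted p = 0.0714). Of the pathway genes named above, limma on TPM did not call Pmepa1, Rgmb and Smad3 in M0, Klf10 and Tob2 in M2, Eng and Smad4 after IL-4 in WT, and Acvrl1, Pmepa1 and Smad2 after IL-4 in KO, with either pseudocount. Without a filter on low counts the calls for Rgmb in M0, Klf10 and Tob2 in M2 and Smad2 after IL-4 in KO were lost, and in fits to only the 6 libraries of a comparison those for Rgmb in M0, Klf10 and Tob2 in M2 and Gdf3 after IL-4 in KO.

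**Figure D5:**
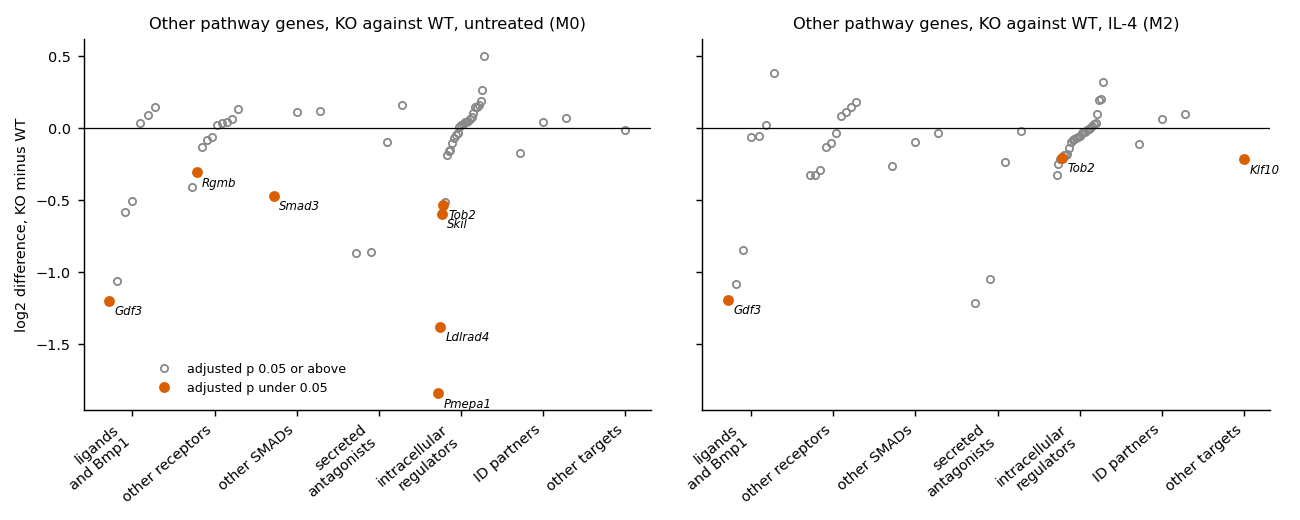
Log2 difference of KO minus WT for the 55 other pathway genes tested, by list, in M0 (left) and in M2 (right), with filled points for genes called by edgeR. All filled points lie below 0, and the open points of most lists lie on both sides of 0.

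The genes whose log2 CPM followed those of Id1 most closely over the 12 libraries were Tnfaip3 (Pearson r = 0.966), Grwd1 (0.965), Pdrg1 (0.954), Sema4c (0.952) and Tsr2 (0.951). Tnfaip3, which encodes the NF-κB inhibitor A20, had 78.1, 83.7 and 79.3 CPM in WT M0, 57.7, 57.8 and 57.3 CPM in KO M0, and at least 80.2 CPM in every M2 library. Like Id1 it was lowest in KO M0, over a smaller range. For Bmpr1a the closest were Gm10076 (r = 0.918), Lyz2 (0.914), Rn7s2 and Rn7s1 (0.885 each) and Gm17494 (0.884). These correlations describe 12 libraries that share 4 groups and 6 mice, and they were taken from many genes, so that no p is given.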

How the data were processed

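The authors deposited 1 table per library, with expected counts (estimated reads per gene) and TPM of 38887 genes. Per the labels and the study's methods, poly(A) RNA was sequenced from a strand-specific kit, read quality was checked with FastQC 0.11.2, and reads were processed with the Grape-nf pipeline under Nextflow and aligned to GRCm38/mm10. The counting program within that pipeline and the annotation release used for counting are not given in the sources used here. The authors' tables of DESeq2 1.40.2 comparisons supplied gene symbols only, and their log2 fold changes and p-values were not used.

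Expected counts were rounded, filtered by group with filterByExpr and fitted with edgeR 4.0.16 in R 4.3.3 (TMM, quasi-likelihood F test, 1 coefficient per group, 12 libraries). Benjamini-Hochberg adjustment ran over all 12846 genes tested, and an adjusted p under 0.05 was taken as a call. The fit was tested on simulated data, in which it recovered 77% of 200 genes changed by a log2 of 1 for the difference between the IL-4 responses and 83% for the genotypes in M0. Of the simulated calls, 6.67% were false for the former and 4.60% for the latter, with 2.98% for the genotypes in M2, 5.06% for IL-4 in WT and 6.11% for IL-4 in KO. In the simulation the groups differed only in the changed genes, and libraries were drawn independently. In the data 50.0% of genes were called after IL-4 in WT, and M0 and M2 libraries shared mice. The simulated rates therefore need not hold for the data. Intervals are 95% and cover these libraries. With 3 against 3, an exact permutation test cannot go below p = 0.1.

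The 10 members, the pathway lists and the 8 marker lists were chosen with earlier results of these data known. Bmp1 and Id4 were set apart from the ligands and the E proteins by function after the values had been seen. Named genes were all members, the called genes of each list (at most 5 per comparison by size), and the 5 genes most like Id1 and Bmpr1a among those with a mean of at least 5 CPM (prior count 2). Alternatives were DESeq2 1.42.0, RLE size factors, no filter on low counts, at least 1 CPM in 3 libraries, limma 3.58.1 on log2(TPM + 1) or with a pseudocount of 0.1, a replicate block, only 6 libraries, the ratio of mean TPM, and leaving out each library. M0 and M2 libraries of the same number deviated together from their group means (r from 0.103 to 0.364 in WT and from 0.160 to 0.209 in KO), so that the number was taken to mark the mouse. Across genotypes, libraries with equal numbers did not pair (r from -0.068 to 0.040). One target gene of the pathway lists is not reported here.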

Additional observations from a re-analysis of the deposited data

Results flagged for a closer look

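IL-4 responses that differed between KO and WT were found for 2 tested members, by 1.62 for Id3 (edgeR adjusted p = 0.0074) and by 0.52 for Id2 (edgeR adjusted p = 0.0107), both as log2 of the KO response minus the WT response. Both were called in all 12 fits that left out 1 library, but limma on log2(TPM + 1) and log2(TPM + 0.1) did not call Id2 (limma adjusted p = 0.0502 and 0.0522). For Id1 this difference was 1.86, and it is given without a test because it contains the M0 values by which the gene was chosen. Of the other pathway genes, the response of Tob2 differed by 0.33 (edgeR adjusted p = 0.0200), since it fell by a log2 of 0.45 in WT and was not called in KO, where it began lower. The call for Tob2 was lost in 5 of the 12 fits without 1 library, those without WT M0 replicate 2, WT M2 replicate 2, KO M0 replicate 2, KO M0 replicate 3 or KO M2 replicate 2, and with limma on TPM at either pseudocount (limma adjusted p = 0.149 for each).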

How the results depend on the processing

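The number of tested members called in M0 was 3 with all libraries and 3 to 4 when each library was left out, in M2 it was 0 throughout, after IL-4 it was 4 to 6 in WT and 5 in KO over the 8 members other than Id1 and Bmpr1a, a count added after the data were seen, and 2 to 4 members differed in their response. The count of 4 for that difference arose without WT M0 replicate 3, where Smad6 and Smad7 were added, and limma lost Id2 with either pseudocount (adjusted p of 0.0502 with log2(TPM + 1) and 0.0522 with log2(TPM + 0.1)), which left 1 call with the latter, while with the former Smad6 was called and the count was again 2. With the replicate block the counts over these 8 members were 3 in M0, 0 in M2, 6 after IL-4 in WT, 5 after IL-4 in KO and 3 for the response of KO minus that of WT. Over all 12846 genes, the block gave 1322, 413, 7016, 7472 and 1003 calls in the same order, the last against 416, for which DESeq2 gave 816 and limma 113 with either pseudocount. In M2, DESeq2 called 713 and limma 57 to 70 genes, against 344. In M0, limma called 700 to 752, against 1256. Among the members, signs turned for differences that were not called. The log2 difference of Bmpr1a after IL-4 in WT was 0.07, but -0.12 and -0.16 with limma on log2(TPM + 1) and log2(TPM + 0.1), and it ran from -0.15 to 0.42 when 1 library was left out. So did Bmpr2 in M0 (-0.15 to 0.44) and after IL-4 in WT (-0.13 to 0.46), Smad6 in M2 (-0.47 to 0.18), Id1 in M2 (-0.035 to 0.078), Smad5 after IL-4 in WT (-0.12 to 0.022), and the differences of Smad1 (-0.089 to 0.029) and Smad5 (-0.11 to 0.033). The cause of these changes was not tested. Few reads limit the precision of Smad6 and Id3 in M2, with 10 to 37 and 25 to 38 reads per library.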
